A study of Mus musculus with 12 samples.

Results

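Of 60288 open chromatin regions in the merged table of untreated brain macrophages, 2088 (3.46%) were present in both graft and host cells at rest and overlapped no region of the merged table made 12 h after endotoxin. They were chosen by 2 readouts of the files: a resting peak had to be named in at least 2 of the 3 CD45.1 and at least 2 of the 3 CD45.2 peak lists, and it could not share even 1 bp with any of the 54953 peaks of the LPS table. Of 31337 resting peaks that met the list condition, 29249 overlapped an LPS peak, and these are called found after LPS here. Absence after LPS and presence at rest are therefore the rule and not a result. The files tabulate no LPS tags over the 2088 intervals, so not found means that no peak was called there, not that the chromatin was shown to be closed.

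The mice were wild-type C57BL/6J bone marrow (BM) chimeras: recipients carrying CD45.2, lethally irradiated (950 cGy) at 6 weeks of age, that were reconstituted with BM of CD45.1 congenic wild-type donors. Brain macrophages were sorted by these alleles, so CD45.1 cells descended from the graft and CD45.2 cells were host microglia that had survived irradiation. For each mouse both populations were sorted, from mice 4 to 6 without treatment and from mice 1 to 3 at 12 h after an injection of 2.5 mg/kg lipopolysaccharide (LPS), a bacterial cell wall endotoxin. All groups thus share irradiation and transplantation, and cells were taken 9 months after the graft, where the labels allow 3.5 or 9 months. Treated and untreated cells came from different mice.

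ATAC-seq inserts adapters into accessible DNA with a transposase, so that a pile of sequence tags marks a promoter, an enhancer or an insulator that is open. In macrophages PU.1 opens enhancers together with partner factors, and in microglia signals of the brain such as transforming growth factor beta (TGF-beta) keep a homeostatic set of enhancers active. Endotoxin acts through Toll-like receptor signalling on nuclear factor kappa B (NF-kappaB) and AP-1, which open further enhancers, while some resting enhancers lose accessibility.

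The untreated libraries held 8392877.5 to 9107770 tags and the LPS libraries 2966364 to 6556594.5, so every LPS library was shallower than every untreated one. CD45.2 of mouse 4 stood apart among the untreated libraries: its list held 37353 entries where the other 5 held 61320 to 95810, and 1079 of the 2088 regions overlapped a peak of its list, against 1705 to 2070 for the others. In the lists that the rule counted, CD45.2 of mouse 4 named 479 of the 2088 regions and the other libraries 1361 to 2068. Most regions thus met the CD45.2 condition through mice 5 and 6 alone. As a check of the cells, peaks nearest to Ptprc (CD45) summed to 493 to 591 normalized tags per library. Peaks nearest to Sall1, a transcription factor of yolk sac-derived microglia, summed to 998 to 1084 tags in CD45.2 and 23.96 to 184 in CD45.1 cells. Among markers of other cells, resting peaks lay at 7 of 10 neuron genes (197 to 307 summed tags per library), 6 of 8 astrocyte genes (479.7 to 600.1), 6 of 8 oligodendrocyte genes (1141 to 1215), 7 of 12 lymphocyte genes (1009.9 to 1349), 7 of 12 neutrophil and monocyte genes (394 to 625) and 7 of 8 endothelial genes (1030.3 to 1411). The part of other cells in the results was not tested. Tags are given as normalized tags, the deposited count divided by a library size factor.

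The sequences below show the strongest regions that lay at least 500 bp from any LPS peak, outside annotated untranslated regions, on the + strand of mm9 as deposited. Capitals mark matches, on either strand, to the motifs searched further down. Only 2 of these 6 hold a match inside the peak: Golm1 (RUNX, AACCACA) and Mir22hg (AP-1, TGANTCA, a letter string that reads the same on both strands).
1700073E17Rik, chr6:145288503-145288668: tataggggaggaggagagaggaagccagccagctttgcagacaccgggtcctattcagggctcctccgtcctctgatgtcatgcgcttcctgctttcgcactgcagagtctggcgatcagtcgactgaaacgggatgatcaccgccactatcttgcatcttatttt
Tbl1xr1, chr3:21972140-21972299: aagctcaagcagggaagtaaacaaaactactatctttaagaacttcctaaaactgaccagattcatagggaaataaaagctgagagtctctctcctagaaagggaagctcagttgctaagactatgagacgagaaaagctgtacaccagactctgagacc
Golm1, chr13:59773691-59773902: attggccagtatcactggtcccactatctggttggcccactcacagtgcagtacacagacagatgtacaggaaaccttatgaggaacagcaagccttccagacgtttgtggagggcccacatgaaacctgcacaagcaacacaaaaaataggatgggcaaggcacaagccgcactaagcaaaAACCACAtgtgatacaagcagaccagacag
Jmjd1c, chr10:66645460-66645633: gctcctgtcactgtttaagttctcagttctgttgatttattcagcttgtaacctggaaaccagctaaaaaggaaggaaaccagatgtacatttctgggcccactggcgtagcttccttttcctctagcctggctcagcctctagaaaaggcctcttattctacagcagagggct
Mir22hg, chr11:75274053-75274194: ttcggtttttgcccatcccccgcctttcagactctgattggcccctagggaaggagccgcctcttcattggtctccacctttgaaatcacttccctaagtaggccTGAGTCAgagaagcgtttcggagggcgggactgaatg
1700110C19Rik, chr17:10521405-10521664: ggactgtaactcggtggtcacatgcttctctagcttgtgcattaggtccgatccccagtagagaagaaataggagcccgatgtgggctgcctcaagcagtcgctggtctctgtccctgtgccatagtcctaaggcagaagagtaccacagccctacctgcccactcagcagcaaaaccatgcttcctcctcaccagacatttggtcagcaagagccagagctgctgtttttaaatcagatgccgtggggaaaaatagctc
A second set shows strong regions nearest to genes of the functional lists used below: a TGF-beta receptor, a lysosomal protease, a phosphatase of immune receptors and a TGF-beta ligand. The strongest region of these lists, at Bin1, is not among them. Inpp5d and Tgfb3 each hold a PU.1 match (GNGGAAGT).
Tgfbr1, chr4:47332480-47332619: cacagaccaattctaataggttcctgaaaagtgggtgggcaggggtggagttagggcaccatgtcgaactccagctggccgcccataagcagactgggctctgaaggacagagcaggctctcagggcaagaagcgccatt
Ctsd, chr7:149586314-149586464: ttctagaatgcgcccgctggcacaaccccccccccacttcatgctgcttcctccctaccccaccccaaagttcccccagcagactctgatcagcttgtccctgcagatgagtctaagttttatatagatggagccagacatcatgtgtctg
Inpp5d, chr1:89521989-89522130: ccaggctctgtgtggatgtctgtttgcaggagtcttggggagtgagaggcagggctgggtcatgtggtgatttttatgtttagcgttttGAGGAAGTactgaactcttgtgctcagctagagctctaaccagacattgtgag
Tgfb3, chr12:87333511-87333674: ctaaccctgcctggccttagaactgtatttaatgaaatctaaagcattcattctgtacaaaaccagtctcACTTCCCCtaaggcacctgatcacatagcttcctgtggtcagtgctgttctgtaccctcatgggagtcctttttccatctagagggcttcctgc

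The set was made mostly of weak resting peaks. Its median was 26.1 normalized tags per library (mean over the 6 untreated libraries; quartiles 21.7 and 33.6, range 3.27 to 187), where peaks found after LPS had a median of 55.3 (quartiles 34.8 and 94.1). The share of peaks without an LPS counterpart fell with every step in resting tags. Under 20 tags it was 331 of 1114 peaks (29.7%), at 20 to 30 tags 1025 of 5347 (19.2%) and at 30 to 40 tags 443 of 4864 (9.11%). At 40 to 60 tags it was 232 of 6514 (3.56%), and at 60 or more 57 of 13498 (0.422%). In bulk libraries a peak that is weaker in every cell and a peak present in fewer cells look alike. LPS libraries had fewer tags, and the part of this in the absence of weak peaks cannot be told apart from a change in accessibility.

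**Figure D1:**
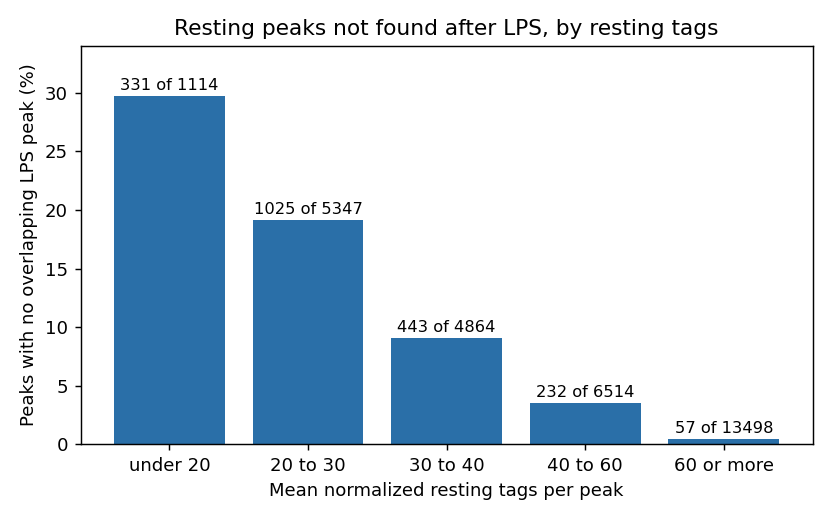
Share of resting peaks, in percent, that had no overlapping LPS peak, for 5 ranges of mean normalized resting tags, among the 31337 peaks that met the list condition (numbers above the bars are peaks without an LPS counterpart of all peaks in the range). The share falls from 29.7% under 20 tags to 0.422% at 60 or more.

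The regions were also counted against the depth of each LPS library. Resting tags of the same population, scaled by total tags, reached the lowest listed score (5 to 7 tags) in all 6 LPS libraries for 1963 of the 2088 regions (94.0%) and for 28866 of 29249 peaks found after LPS (98.7%). The median region would have had 9.54 scaled tags in the shallowest LPS library (CD45.2 of mouse 1) and 21.1 in the deepest (CD45.2 of mouse 3). This is a low bar: in the 6 LPS lists, peaks that the merged LPS table lacked had median scores of 5.0 to 7.5 and those it held 10.5 to 16.5. Among peaks that reached all 6 scores, 6.37% were not found, and among the 508 that did not, 24.6%.

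The merged LPS table was also narrower than the lists of single LPS libraries. In all, 1819 regions overlapped no peak of any deposited LPS list, and 269 (12.9%) overlapped at least 1, of which 196 were in a single list and 73 in several. The deepest LPS library, CD45.2 of mouse 3, held 186 of them and the shallowest, CD45.2 of mouse 1, held 6. Of the distinct peaks in the single LPS lists, 95.7% to 99.6% overlapped the merged LPS table. Chosen after their values were seen, 2 regions were in 5 of the 6 LPS lists: an intronic region of Apbb1ip (46.2 resting tags), an adaptor of Rap1 and integrin signalling, and an intronic region of Mdga2. The latter held 139 tags in CD45.2 of mouse 4 and 16.3 to 61.5 in the other libraries, a mean of 47.1 with that library and 28.6 without it.

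LPS peaks were often close by. An LPS peak lay less than 50 bp away for 125 regions (5.99%), less than 500 bp away for 504 (24.1%) and less than 10000 bp away for 1783 (85.4%), with a median distance of 1852 bp. Among regions at promoters, 135 of 208 (64.9%) had an LPS peak less than 500 bp away, and outside promoters 369 of 1880 (19.6%). For 374 of the 504 (74.2%), that nearest LPS peak itself overlapped another resting peak. Having another resting peak within 500 bp was about as common in the set (21.3%) as among peaks found after LPS (22.7%). Just inside the distance limit, the 125 regions within 50 bp of an LPS peak had a median of 29.7 tags. Just outside it, the 16 resting peaks that overlapped an LPS peak by at most 10 bp had a median of 28.5.

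The list condition split the set unevenly. In 912 regions exactly 2 lists of each population named the peak (median 22.2 tags), in 740 it was 3 CD45.1 and 2 CD45.2 lists (27.6), in 172 it was 2 and 3 (30.1), and in 264 all 6 (40.0). The larger number with 2 CD45.2 lists went with the short list of CD45.2 of mouse 4. Just outside the condition, a further 1584 resting peaks without an LPS counterpart had 2 lists of either population and 1 of the other, with a median of 18.6 tags.

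Of the 1584 regions with no LPS peak within 500 bp, the 10 with the highest resting tags carried 72.3 to 94.2. The strongest lay 625 bp from an LPS peak in an intergenic stretch nearest to 1700073E17Rik, and held 79.3, 87.6 and 89.8 in the CD45.1 libraries and 124, 94.4 and 90.5 in the CD45.2 libraries. Every CD45.2 library was above every CD45.1 library, and the region was in all 6 resting lists and in no LPS list. Scaled to the LPS depths its resting tags would be 35.4 to 78.2. At Tbl1xr1, which encodes a subunit of NCoR and SMRT corepressor complexes, a region 3355 bp upstream of the start site and 2792 bp from an LPS peak held 84.0, 108 and 84.9 in the CD45.1 libraries and 106, 96.4 and 79.1 in the CD45.2 libraries. This region lies in an LTR repeat of the RMER15 class and the populations overlapped throughout.

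A region 1616 bp upstream of Ifitm10, chr7:149559618-149559943, held 112, 104 and 63.2 in the CD45.1 libraries and 87.7, 82.0 and 76.3 in the CD45.2 libraries. GENCODE places it over an exon of 6330512M04Rik within the Ctsd locus. In intron 1 of Golm1, which encodes a Golgi membrane protein, the region held 67.2, 103 and 46.3 in the CD45.1 libraries and 64.7, 106 and 90.5 in the CD45.2 libraries. In intron 2 of Jmjd1c, a JmjC-domain protein of the histone demethylase family, it held 73.2, 82.1 and 58.3 in the CD45.1 libraries and 52.4, 108 and 75.5 in the CD45.2 libraries. In each of these the population ranges overlapped.

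Among promoters, the region 918 bp upstream of Mir22hg, the host transcript of miR-22, held 85.4, 61.6 and 119 in the CD45.1 libraries and 45.9, 67.7 and 66.1 in the CD45.2 libraries. The promoter region of Zeb2os, chr2:44967636-44967818, held 74.2, 49.7 and 73.5 in the CD45.1 libraries and 92.6, 80.5 and 67.8 in the CD45.2 libraries. Zeb2os is an antisense transcript of Zeb2, a repressor that maintains the identity of tissue macrophages, and the region lies over Zeb2 in GENCODE and has a MEF2 match. At Gpr108, chr17:57387832-57387968, the region held 72.3, 63.0 and 71.3 in the CD45.1 libraries and 76.2, 77.4 and 73.4 in the CD45.2 libraries, and here every CD45.2 library was above every CD45.1 library by a small margin. The remaining pair were an intronic region of 1700110C19Rik, with 76.5, 81.7 and 45.7 in the CD45.1 libraries and 83.6, 75.1 and 82.0 in the CD45.2 libraries, and a region 2881 bp upstream of Cenpo, chr12:4237097-4237254, with 79.3, 84.0 and 88.2 in the CD45.1 libraries and 51.6, 55.3 and 85.6 in the CD45.2 libraries. The latter is annotated to a 3′ untranslated region, and GENCODE places no gene there. None of the 10 overlapped a peak in any single LPS list, and none had an adjusted p under 0.05 between the populations.

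**Figure D2:**
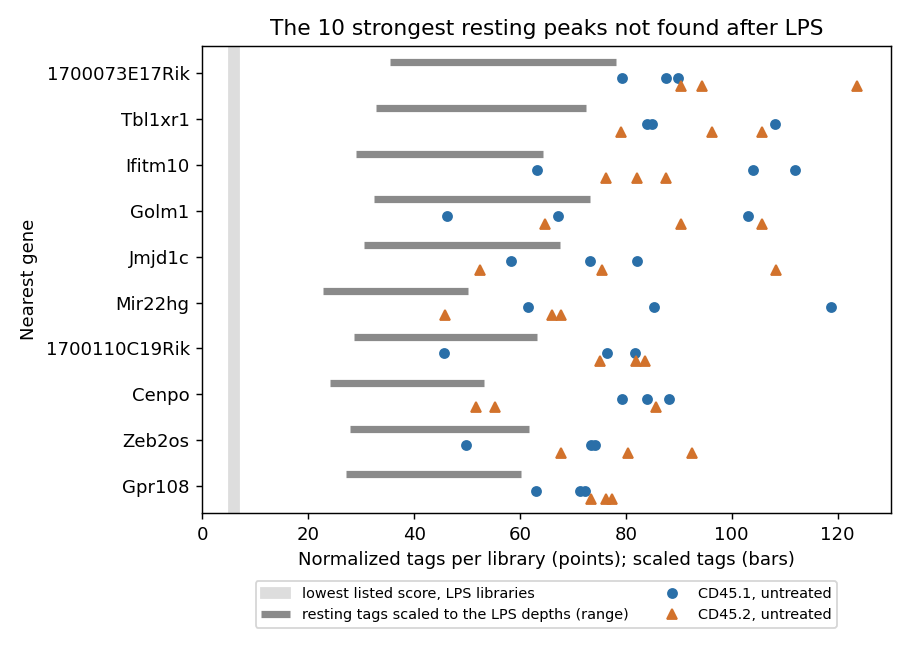
Normalized tags of the 10 strongest resting regions at least 500 bp from an LPS peak, with a point for each of 3 CD45.1 and 3 CD45.2 untreated libraries, the range of resting tags scaled to the 6 LPS depths (grey bars) and the lowest scores listed in LPS libraries, 5 to 7 tags (shaded). The lowest grey bar begins at 22.7 tags, above the shaded range.

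Without the distance limit the strongest region was at the promoter of Nt5dc3, chr10:86241268-86241382, with 186, 206 and 187 in the CD45.1 libraries and 206, 159.8 and 175 in the CD45.2 libraries. An LPS peak lay 8 bp from it. The next were at the promoters of Rps19 (116 tags), a ribosomal protein, and Sfxn5 (116), upstream of Sdcbp (113), and at the promoter of Znfx1 (95.3), each within 45 bp of an LPS peak.

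Most regions were distal. Introns held 981 (47.0%), intergenic DNA 748 (35.8%) and promoters 208 (9.96%), with 54 at transcript ends, 38 in exons, 32 in 3′ and 19 in 5′ untranslated regions and 8 in non-coding transcripts. Among peaks found after LPS, 34.7% were at promoters, 31.8% in introns and 27.9% intergenic. Promoter peaks carried more tags, and the promoter shares were therefore also read within ranges of resting tags: 9.37% against 15.8% under 20 tags, 6.73% against 11.7% at 20 to 30 tags, 11.5% against 15.2% at 30 to 40, 17.7% against 23.9% at 40 to 60, and 28.1% of 57 regions against 54.8% at 60 or more. By distance, 675 regions (32.3%) lay 1000 to 10000 bp from a start site, against 19.1% of peaks found after LPS.

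Sequence around the regions was poorer in G and C, with a median of 50.0% in the central 200 bp against 55.0% for peaks found after LPS, and at 20 to 30 tags 49.5% against 51.0%. Annotated repeats took a larger share of the set over all tags, but not in every range. SINE elements held 92 regions (4.41%) against 1.67%, LTR elements 101 (4.84%) against 3.51% and LINE elements 63 (3.02%) against 1.83%. At 20 to 30 tags the SINE shares were 5.07% and 2.98% and the LTR shares 4.88% and 4.70%, while at 40 to 60 tags SINE (1.72% against 2.20%), LTR (2.59% against 4.22%) and LINE (1.72% against 2.29%) shares were all lower in the set. By autosome the share of the 31337 peaks that had no LPS counterpart ranged from 5.08% on chromosome 14 to 9.25% on chromosome 11, where 207 of 2239 peaks were not found.

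Matches to AP-1, NF-kappaB and CEBP were less common in the set than among peaks found after LPS, as were matches to SP/KLF, ETS and an E-box given further down, while IRF, also a motif of the endotoxin response, matched 1.15% and 1.23%. In the central 200 bp, AP-1 (TGANTCA), the site of Fos and Jun dimers, was present in 63 regions (3.02%) and in 2236 peaks found after LPS (7.64%), against 8.11% of all 60288 resting peaks. An NF-kappaB match was present in 30 regions (1.44%) against 3.62%, with 3.35% of all resting peaks. CEBP (TTGCNNAA) matched 6.75% against 9.08%, with 9.82% of all. PU.1 (GNGGAAGT) matched 377 regions (18.1%) against 16.8%, with 16.1% of all.

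These motif shares were also read outside promoters and within ranges of resting tags. Outside promoters PU.1 matched 18.6% of 1880 regions (exact 95% binomial interval 16.8% to 20.4%) and 20.8% of 19086 peaks found after LPS (20.2% to 21.4%), the opposite order to that over all peaks. At 20 to 30 tags AP-1 matched 2.82% of 956 regions (exact 95% binomial interval 1.87% to 4.08%) and 8.73% of 3816 peaks found after LPS (7.85% to 9.67%). At 30 to 40 tags it matched 3.83% (2.16% to 6.23%) against 10.4% (9.44% to 11.4%), and at 40 to 60 tags 4.19% (1.83% to 8.09%) against 10.5% (9.64% to 11.4%). At 60 or more tags the AP-1 intervals overlapped, with 4.88% of 41 regions (0.596% to 16.5%) against 11.3% (10.5% to 12.1%), and with promoters included the order turned, 8.77% of 57 regions against 6.38%. For NF-kappaB the shares at 20 to 30 tags were 1.67% (0.960% to 2.70%) and 3.38% (2.83% to 4.00%). For CEBP they were 7.32% (5.75% to 9.16%) and 10.7% (9.70% to 11.7%), and for PU.1 18.8% (16.4% to 21.5%) and 17.2% (16.03% to 18.5%). The NF-kappaB and CEBP intervals were also apart at 30 to 40 and 40 to 60 tags. Under 20 tags and at 60 or more the intervals of both motifs overlapped. The intervals cover counting error only, neighbouring regions are not independent, and no test was made because being found after LPS is the rule itself.

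**Figure D3:**
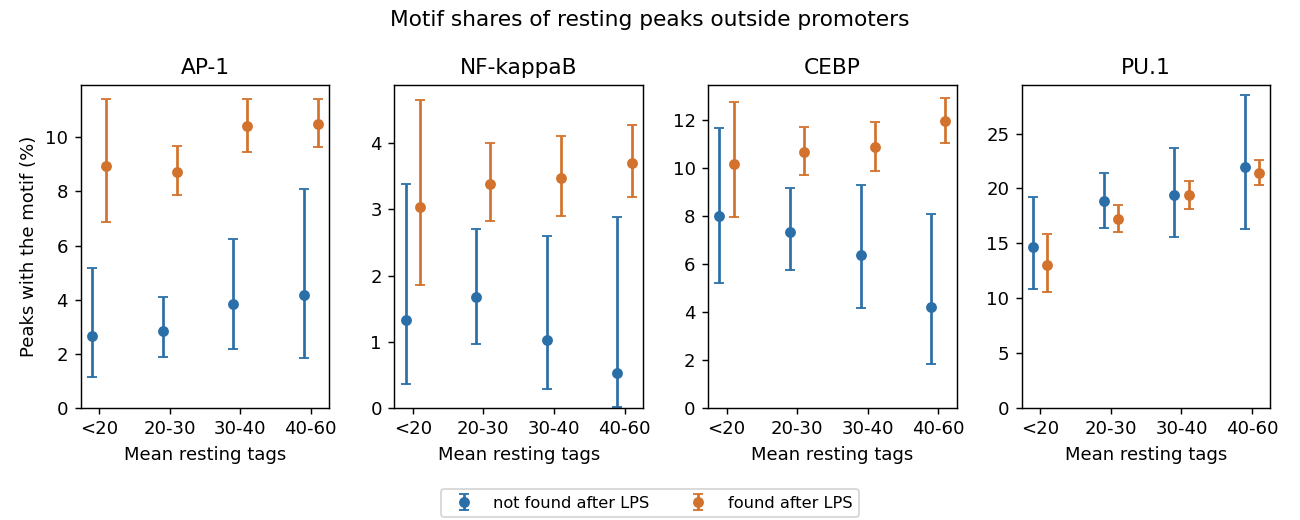
Percent of resting peaks outside promoters with a match to AP-1, NF-kappaB, CEBP or PU.1 in the central 200 bp, by range of mean normalized resting tags, for peaks not found and peaks found after LPS (bars, exact 95% binomial intervals). The AP-1 intervals are apart and the PU.1 intervals overlap in each of the 4 ranges plotted, from under 20 to 40 to 60 tags. The NF-kappaB and CEBP intervals overlap under 20 tags and are apart in the other ranges.

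Of the other motifs, RUNX (AACCACA) matched 6.66% of regions against 5.01%, with 5.65% of all resting peaks, and MEF2 2.44% against 1.49%, with 1.98% of all. Outside promoters RUNX matched 6.97% (5.86% to 8.21%) against 6.57% (6.22% to 6.93%). MEF2 matched 2.50% (1.84% to 3.31%) there against 2.02% (1.83% to 2.23%). For both motifs these intervals overlapped. CTCF, which marks insulators, matched 7.04% against 4.81%, but at 20 to 30 tags 9.37% against 10.9%. Taken over all tags, matches typical of promoters were scarcer in the set, also outside promoters. SP/KLF (GGGCGGGG) matched 3.69% against 15.1%, with 9.93% of all, and outside promoters 2.50% (1.84% to 3.31%) against 5.43% (5.12% to 5.76%). ETS (CCGGAAGT) matched 0.479% against 3.69%, with 2.24% of all, and outside promoters 0.372% (0.150% to 0.766%) against 1.16% (1.02% to 1.33%). For the E-box named next, the shares outside promoters were 1.22% (0.777% to 1.83%) and 2.66% (2.43% to 2.89%). The E-box bound by TFE factors (TCACGTG) matched 1.44% against 3.72%, with 2.87% of all, IRF matched 1.22% of all, and SMAD matched (GTCTAGAC) 0.335% against 0.287%, with 0.275% of all. Within each range of resting tags outside promoters, the intervals of the set and of peaks found after LPS overlapped for SP/KLF, ETS and this E-box. At 20 to 30 tags SP/KLF matched 2.30% (1.45% to 3.46%) against 3.49% (2.93% to 4.12%).

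Between graft and host cells no region of the set passed the call at rest. Of 2084 regions with more than 10 tags in at least 1 library, 0 were called higher in CD45.1 and 0 higher in CD45.2 (DESeq2, adjusted p under 0.01 and more than 4-fold), where 3.78% and 2.65% of all 59170 peaks tested were called in the same directions. edgeR called 0 as well, and 72 and 80 regions had an unadjusted p under 0.05 in the respective directions. Requiring lists of both populations limits such differences by itself, and among peaks found after LPS with the same list condition 30 (0.103%) and 32 (0.109%) of 29235 were called. The log2 fold changes of the regions had a median of -0.010 and an SD of 0.39, and 2047 (98.2%) were under 2-fold. With adjusted p under 0.05 and no fold limit, 24 regions (1.15%) were higher in CD45.1 and 23 (1.10%) in CD45.2, against 8.54% and 6.32% of all peaks tested and 4.00% and 2.39% of those found after LPS. With mouse as a block, 1 region, the one near 5031425F14Rik, was called higher in CD45.1 and 0 were called higher in CD45.2. The counts without a fold limit became 9 and 11 with mouse as a block, 73 and 84 with edgeR, 3 and 3 when scaled by total tags, and 5 and 4 without CD45.2 of mouse 5. The normalized tags of the populations did not overlap in 434 regions (20.8%), against 35.5% of all peaks tested.

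Since none was called, the 5 regions with the smallest adjusted p in each direction are given, a choice made after the values were seen. Higher in CD45.1 was a region 76080 bp upstream of Hsfy2, chr1:56770300-56770450, with 61.1, 71.2 and 46.8 in the CD45.1 libraries and 17.2, 18.6 and 17.9 in the CD45.2 libraries. Its means were 59.7 ± 12.2 against 17.9 ± 0.686 (SD, n = 3 each), a log2 fold change of CD45.1 over CD45.2 of 1.76 ± 0.33 (SE; adjusted p = 5.2e-06, DESeq2). Near 5031425F14Rik, chr2:166292749-166292921, the tags were 46.2, 56.1 and 82.8 in the CD45.1 libraries and 4.92, 20.1 and 21.5 in the CD45.2 libraries, or 61.7 ± 18.9 against 15.5 ± 9.21 (SD, n = 3 each), a log2 fold change of CD45.1 over CD45.2 of 1.89 ± 0.37 (SE; adjusted p = 1.2e-05, DESeq2). A region 1004 bp upstream of Cd14, chr18:36887403-36887544, held 41.0, 60.7 and 55.0 in the CD45.1 libraries and 12.3, 22.4 and 19.9 in the CD45.2 libraries. CD14 is the co-receptor that hands LPS to Toll-like receptor 4, and the region's means were 52.2 ± 10.1 against 18.2 ± 5.28 (SD, n = 3 each), a log2 fold change of CD45.1 over CD45.2 of 1.45 ± 0.34 (SE; adjusted p = 4.3e-04, DESeq2). In intron 1 of Dip2b the means were 42.4 ± 7.002 and 14.8 ± 4.07 (adjusted p = 8.2e-04), and upstream of Egfl7 they were 56.0 ± 8.64 and 25.1 ± 2.90 (adjusted p = 0.0027). In all 5 each CD45.1 library was above each CD45.2 library.

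Higher in CD45.2 was a region 122195 bp downstream of the start of Trim33, chr3:103205303-103205519, with 22.4, 26.5 and 10.3 in the CD45.1 libraries and 88.5, 84.0 and 55.2 in the CD45.2 libraries. TRIM33 is a ubiquitin ligase that acts on SMAD4 in TGF-beta signalling, and the means were 19.7 ± 8.38 against 75.9 ± 18.1 (SD, n = 3 each), a log2 fold change of CD45.1 over CD45.2 of -1.90 ± 0.33 (SE; adjusted p = 4.8e-07, DESeq2). Near Zfp648, chr1:155963330-155963522, the tags were 33.1, 22.4 and 7.62 in the CD45.1 libraries and 70.5, 61.5 and 89.7 in the CD45.2 libraries, or 21.03 ± 12.8 against 73.9 ± 14.4 (SD, n = 3 each), a log2 fold change of CD45.1 over CD45.2 of -1.79 ± 0.35 (SE; adjusted p = 9.1e-06, DESeq2). Upstream of Ywhah, which encodes a 14-3-3 protein, they were 20.5, 25.1 and 15.2 in the CD45.1 libraries and 61.4, 61.9 and 62.1 in the CD45.2 libraries (adjusted p = 1.5e-05, DESeq2). The others were a region named for Tm2d1 that lies in the last exon of Nfia (24.5 ± 11.8 against 64.5 ± 3.26, adjusted p = 4.6e-04, DESeq2) and an intron 1 region of Gcnt2 (18.8 ± 1.30 against 46.8 ± 3.53, adjusted p = 0.0013, DESeq2). Here too no library of one population reached into the range of the other.

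**Figure D4:**
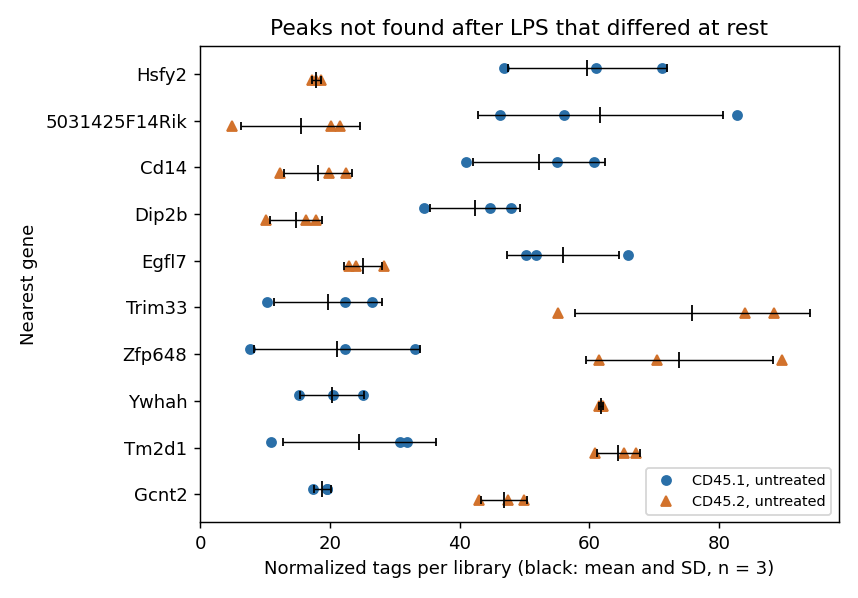
Normalized tags of 10 regions with the smallest adjusted p between CD45.1 and CD45.2 cells at rest, 5 in each direction, with a point per untreated library and the mean and SD (n = 3) in black. The populations do not overlap in any of the 10, which were picked for this difference.

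The share of tags in the whole set was also compared between the populations. Of all tags in resting peaks, 2.28%, 2.34% and 2.11% lay in the set in CD45.1 of mice 4 to 6 and 2.08%, 2.48% and 2.39% in CD45.2. The means were 2.24% ± 0.120 and 2.32% ± 0.209 (SD, n = 3 each), a difference of -0.07 percentage points. The list condition drew on the same resting tags in both populations and favours a small difference, so these shares are a description and no test is given. Without mouse 6 the difference turned to 0.03 percentage points.

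Regions were next counted by the function of the nearest gene, which need not be the gene that a region regulates. Genes of homeostatic microglia had the highest share among the functional lists described here. Of 127 resting peaks nearest to them that met the list condition, 17 (13.4%) were not found after LPS, against 6.66% of all 31337, and 7.65 would be in the set at the share of each tag range. The 17 lay at 11 of 27 genes, among them 3 at Gpr34, a receptor for lysophosphatidylserine, 2 at Cst3 (cystatin C), and 1 each at Bin1, Csf1r, Entpd1, Selplg, Siglech, Sparc and Tgfbr1. In an intron of A830052D11Rik, 17765 bp upstream of Bin1, chr18:32519031-32519181, the tags were 63.4, 80.8 and 52.8 in the CD45.1 libraries and 50.0, 75.9 and 77.5 in the CD45.2 libraries, and an LPS peak lay 67 bp away. At Tgfbr1, the type I TGF-beta receptor, they were 78.4, 57.5 and 53.4 in the CD45.1 libraries and 57.4, 60.4 and 74.3 in the CD45.2 libraries, with an LPS peak 92 bp away. The strongest region of Gpr34 lies in intron 7 of Cask, chrX:13195751-13195941, with 46.2, 67.5 and 53.9 in the CD45.1 libraries and 54.1, 49.9 and 49.5 in the CD45.2 libraries, and the nearest LPS peak was 1625 bp away. Csf1r, the receptor for the survival factors of microglia, had 1 region of 48.8 tags on average. P2ry12, Tmem119 and Cx3cr1 had none.

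Lists for signalling were closer to the background. In the TGF-beta list 13 of 132 peaks (9.85%) were in the set, with 8.53 at the share of each tag range, among them 3 at the type II receptor Tgfbr2 (27.0 to 41.9 tags) and 2 at the inhibitor Smad7. The region named for the ligand Tgfb3 lies in intron 29 of Ttll5 and held 67.6, 62.1 and 57.7 in the CD45.1 libraries and 54.9, 42.6 and 39.8 in the CD45.2 libraries. At Ski, a SMAD corepressor, chr4:154609147-154609269, the tags were 51.8, 57.5 and 50.6 in the CD45.1 libraries and 59.0, 50.3 and 47.9 in the CD45.2 libraries. Both had an LPS peak no more than 85 bp away. For phosphoinositide and calcium signalling it was 16 of 157 (10.2%, with 11.2 at the share of each tag range). Inpp5d, which encodes the phosphatase SHIP1, held 55.0, 53.4 and 65.3 in the CD45.1 libraries and 72.1, 59.6 and 54.8 in the CD45.2 libraries in a LINE element of intron 1, and the promoter of Pik3cd, a catalytic subunit of phosphoinositide 3-kinase, held 48.0, 38.8 and 46.8 in the CD45.1 libraries and 45.06, 36.8 and 47.5 in the CD45.2 libraries. In intron 2 of the kinase gene Prkcd the tags were 40.6, 36.5 and 34.8 in the CD45.1 libraries and 35.2, 28.6 and 32.5 in the CD45.2 libraries.

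For lysosome and autophagy 9 of 103 peaks (8.74%) were in the set, with 5.91 at the share of each tag range. The strongest, 12614 bp upstream of Ctsd (cathepsin D), held 86.8, 91.7 and 56.6 in the CD45.1 libraries and 57.4, 39.1 and 33.7 in the CD45.2 libraries, with CD45.1 of mice 4 and 5 above every CD45.2 library (adjusted p = 0.01, DESeq2). Regions in introns of Wdfy3, an autophagy adaptor, and of Lamp2, a lysosomal membrane protein, averaged 41.0 and 36.6 tags.

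Genes of the endotoxin response were near the background. Of 123 peaks nearest to genes of endotoxin sensing and NF-kappaB, 9 (7.32%) were in the set, with 7.06 at the share of each tag range. In intron 1 of Rel, an NF-kappaB subunit, chr11:23669794-23669898, the tags were 57.4, 47.9 and 52.3 in the CD45.1 libraries and 42.6, 41.8 and 41.8 in the CD45.2 libraries, a log2 fold change of CD45.1 over CD45.2 of 0.32 ± 0.27 (SE, n = 3 each) that did not pass the test (adjusted p = 0.57, DESeq2). In intron 16 of Nfkb1, which encodes p105 and p50, they were 29.4, 33.8 and 25.05 in the CD45.1 libraries and 41.8, 43.3 and 43.4 in the CD45.2 libraries. The region in the last exon of Nfkbiz, a nuclear regulator of NF-kappaB, held 38.2, 38.3 and 61.0 in the CD45.1 libraries and 29.5, 42.2 and 43.4 in the CD45.2 libraries. Tlr2, Tnfaip2, Tab2 and Cd14 had 1 region each. Of the interferon list 7 of 93 peaks (7.53%) were in the set, led by intron 7 of Irf2 (26.6, 34.2 and 37.6 in the CD45.1 libraries and 37.7, 47.2 and 35.3 in the CD45.2 libraries), with regions of Irf5 and Irf8 averaging 30.3 and 26.7 tags.

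The list of lineage transcription factors was near the background, with 14 of 217 peaks (6.45%) and 12.9 at the share of each tag range. A region 208088 bp from Runx1 held 37.3, 39.2 and 40.3 in the CD45.1 libraries and 27.9, 46.4 and 48.7 in the CD45.2 libraries, and CD45.2 of mouse 3 listed a peak there after LPS. Upstream of Zeb2, chr2:45094577-45094743, the tags were 20.5, 31.9 and 30.5 in the CD45.1 libraries and 56.5, 49.5 and 45.0 in the CD45.2 libraries (adjusted p = 0.044, DESeq2), with CD45.2 above CD45.1 throughout, and upstream of Mef2a they were 28.0, 27.4 and 32.7 in the CD45.1 libraries and 37.7, 45.3 and 46.3 in the CD45.2 libraries. Spi1, which encodes PU.1, had 1 region with 33.2 tags on average. Lists for other cells added 1 region at S100b (35.0 tags), an astrocyte marker, 1 each at the oligodendrocyte genes Cnp (17.8) and Olig1 (19.8) and 1 at Vcan (22.2), a monocyte gene, and none for neurons, lymphocytes or endothelium.

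Regions were spread over 1781 genes, of which 1543 had 1 region. Tbl1xr1 and Frmd4a had most, with 7 each. The 7 of Tbl1xr1 spanned 303 kb of chromosome 3, 6 of them upstream of the gene and 1 in intron 1, and averaged 16.7 to 93.0 tags, while 17 further resting peaks of this gene were found after LPS. The 7 of Frmd4a, which encodes a FERM domain scaffold of cell polarity, all lay in introns over 296 kb of chromosome 2 and averaged 20.1 to 24.5 tags. Its last, in intron 16, was in 4 single LPS lists. Lrrfip1, a nucleic acid-binding regulator, had 5 (20.8 to 46.5 tags), 2 of them at promoters. Tns3, a tensin of focal adhesions, had 5 (19.8 to 31.6 tags), the first with 40.6, 37.4 and 46.8 in the CD45.1 libraries and 16.4, 20.9 and 27.6 in the CD45.2 libraries. Of 6 genes with 4 regions, Snx13, a sorting nexin, had the highest sum of tags, and its strongest region, in intron 1, held 69.0, 84.4 and 61.5 in the CD45.1 libraries and 80.3, 66.6 and 72.6 in the CD45.2 libraries, with an LPS peak 50 bp away.

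To see how the surroundings of these genes changed after LPS, peaks that matched between the untreated and LPS tables were compared within each population, which uses no region of the set. Untreated tags were counted over the untreated peak and LPS tags over its LPS match, so treatment and counting interval go together. Over all peaks the median width was 132 bp at rest and 167 bp after LPS. The part of this in the fold changes was not tested. Intervals printed for matched peaks are those of the untreated peak. Of 7819 matched peaks nearest to a gene with a region in the set, 510 (6.52%) were lower and 616 (7.88%) higher after LPS in CD45.1 cells (DESeq2, adjusted p under 0.05 and more than 2-fold), against 4.93% and 6.78% of all 39235 matched peaks. In CD45.2 cells 389 (4.98%) were lower and 686 (8.77%) higher, against 3.69% and 7.69%. Median log2 fold changes were -0.072 and -0.042, where those of all matched peaks were -0.0045 and -0.0072. Scaled by total tags the medians of all matched peaks moved to -0.04 and -0.15. The counts near genes of the set became 223 lower and 430 higher in CD45.1 (2.85% and 5.50%, against 2.02% and 4.65% of all matched peaks). In CD45.2 they became 249 and 449 (3.18% and 5.74%, against 2.18% and 4.83%). The count of lower peaks in CD45.1 fell to 248 without the LPS library of mouse 3 and 329 without that of mouse 2, where all matched peaks gave 907 and 1185. In CD45.2 it fell to 228 without the LPS library of mouse 3 (2.92%, against 2.09% of all matched peaks). It fell to 218 and 238 without the untreated libraries of mice 5 and 6 (2.79% and 3.05%, against 1.90% and 2.15%). Both directions were thus somewhat above the background, and more peaks rose than fell. This background includes the 7819 peaks themselves, and the shares were not read by annotation or range of tags.

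**Figure D5:**
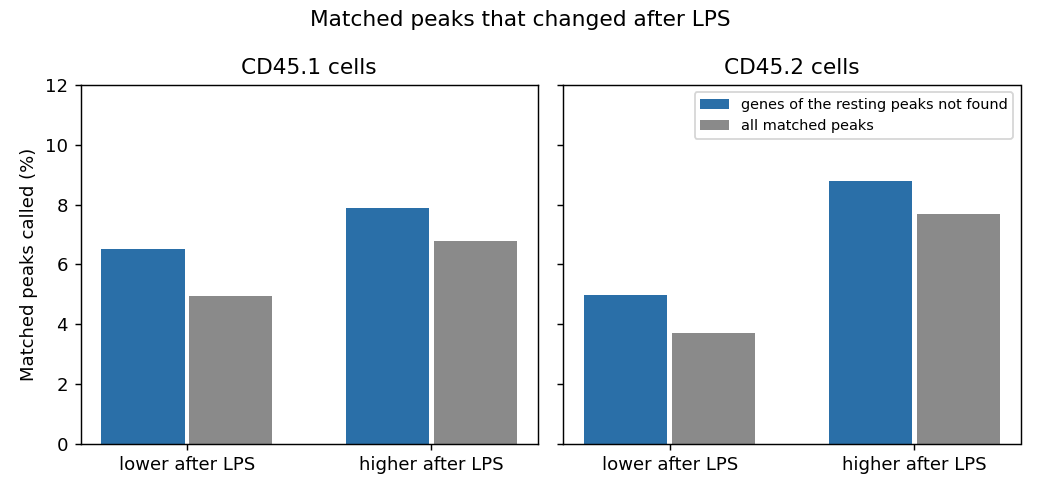
Percent of matched peaks called lower or higher after LPS (DESeq2, adjusted p under 0.05 and more than 2-fold) in CD45.1 and CD45.2 cells, for the 7819 peaks nearest to genes with a region in the set and for all 39235 matched peaks. The share near the genes of the set is above that of all matched peaks in each of the 4 pairs of bars, 6.52% against 4.93% in the first.

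Peaks of homeostatic genes leaned the other way. Of 146 matched peaks of that list, 16 were lower and 6 higher in CD45.1 and 20 lower and 7 higher in CD45.2, with median log2 fold changes of -0.23 and -0.38. Scaled by total tags these counts were 9 and 3 in CD45.1 and 13 and 3 in CD45.2. For endotoxin sensing and NF-kappaB, of 146 matched peaks 4 were lower and 14 higher in CD45.1 and 4 and 24 in CD45.2, with medians of 0.18 and 0.28. For the TGF-beta list, 7 were lower and 13 higher of 150 in CD45.1 and 5 and 13 in CD45.2. For lysosome and autophagy it was 7 and 7 of 113 in CD45.1 and 3 and 7 in CD45.2. For phosphoinositide and calcium signalling it was 11 and 11 of 192 and 11 and 15, for interferon 10 and 7 of 114 and 5 and 10, and for lineage factors 19 and 32 of 298 and 12 and 33. Scaled by total tags, the order of the interferon counts turned in CD45.1, to 3 lower and 6 higher, with 2 and 6 in CD45.2. The same scaling gave 1 and 12 in CD45.1 and 1 and 17 in CD45.2 for endotoxin sensing, 1 and 8 and 2 and 10 for TGF-beta, and 4 and 22 and 8 and 21 for lineage factors. It gave 3 and 3 and 1 and 6 for lysosome and autophagy, and 4 and 6 and 6 and 12 for phosphoinositide and calcium signalling.

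Named by the smallest adjusted p, the lower peaks in CD45.1 cells were near Arhgap5, Zfp648 and Psap. Near Arhgap5, chr12:53498907-53499166 had 54.8, 69.2 and 49.8 untreated and 10.55, 17.5 and 6.30 after LPS (log2 fold change -2.45 ± 0.39 (SE, n = 3 each), adjusted p = 2.1e-08, DESeq2). Near Zfp648 the tags were 94.3, 116 and 70.2 untreated and 37.5, 23.3 and 24.5 after LPS (log2 fold change -1.68 ± 0.27 (SE, n = 3 each), adjusted p = 7.5e-08, DESeq2). In an intron of Psap, the precursor of the saposins that assist lysosomal lipid breakdown, they were 71.9, 84.2 and 70.9 untreated and 30.5, 15.5 and 15.4 after LPS (log2 fold change -1.84 ± 0.30 (SE, n = 3 each), adjusted p = 7.8e-08, DESeq2). In CD45.2 cells they were near Mir3074-2, Mir21c and Bin2. At Mir3074-2 the tags were 83.2, 121 and 103 untreated and 32.8, 36.6 and 24.1 after LPS (log2 fold change -1.76 ± 0.26 (SE, n = 3 each), adjusted p = 1.7e-09, DESeq2) and near Mir21c 52.2, 59.0 and 47.3 untreated and 3.78, 6.32 and 6.56 after LPS (log2 fold change -3.05 ± 0.46 (SE, n = 3 each), adjusted p = 3.0e-09, DESeq2). In an intron of Bin2, a membrane-bending BAR protein of leukocytes, they were 51.7, 60.3 and 55.2 untreated and 0, 13.3 and 5.25 after LPS (log2 fold change -3.04 ± 0.47 (SE, n = 3 each), adjusted p = 1.1e-08, DESeq2). Untreated and LPS libraries did not overlap in any of these 6, which were picked for their small adjusted p.

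Among higher peaks of the same genes, one near Lyst, a regulator of lysosome size, went from 24.3, 19.3 and 13.3 to 129, 165 and 158 in CD45.1 cells (log2 fold change 2.97 ± 0.24 (SE, n = 3 each), adjusted p = 3.0e-30, DESeq2). Near Tnfrsf1b, which encodes a TNF receptor, it was 20.9, 16.2 and 7.17 untreated and 128, 120.5 and 108 after LPS in CD45.1 (log2 fold change 2.99 ± 0.27 (SE, n = 3 each), adjusted p = 5.7e-24, DESeq2) and 5.98, 8.17 and 12.1 untreated and 112, 87.2 and 94.1 after LPS in CD45.2 (log2 fold change 3.36 ± 0.31 (SE, n = 3 each), adjusted p = 7.1e-24, DESeq2). In an intron of Tns3, 10014 bp from a region of the set, CD45.1 tags were 13.7, 5.20 and 5.02 untreated and 82.6, 95.2 and 94.4 after LPS (log2 fold change 3.51 ± 0.34 (SE, n = 3 each), adjusted p = 6.7e-22, DESeq2). Near Tlr2, the receptor for bacterial lipoproteins, CD45.2 tags were 15.8, 11.1 and 16.8 untreated and 154, 152 and 159 after LPS (log2 fold change 3.46 ± 0.28 (SE, n = 3 each), adjusted p = 9.7e-31, DESeq2), and near Mir5118 16.3, 11.6 and 9.34 untreated and 151, 129 and 102 after LPS (log2 fold change 3.40 ± 0.29 (SE, n = 3 each), adjusted p = 4.1e-27, DESeq2). So genes such as Tns3 had resting regions that were not found after LPS and other regions that rose. Counted over the LPS table, 1045 LPS peaks in at least 2 lists of each population overlapped no resting peak, and 212 genes had both kinds, which is 11.9% of the genes of the set and 23.3% of the 911 genes of the LPS-only peaks. The share to be had from the number of peaks per gene was not computed, so this overlap is a count only.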

How the data were processed

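ATAC-seq was performed on 12 libraries of 30000 to 50000 sorted cells, from CD45.1 and CD45.2 brain macrophages of 3 untreated and 3 LPS-treated chimeras. Per the labels, reads were demultiplexed with bcl2fastq 2.17.1.14, and Bowtie2, Picard 1.108, HOMER and the build mm9 are listed, without the settings of alignment or duplicate removal. The authors called peaks in each library with HOMER, merged them by treatment and deposited, for each merged peak, the tags of each library as estimated counts in steps of 0.5 together with the annotation. The deposited lists of single libraries give the peak score, a tag count, and totals in their headers. The lists named in the merged tables carry another file ending than the deposited lists, and the relation between them is not given in the sources used here. The headers of the deposited lists show a required enrichment over the local region, whereas the methods of the study describe loose HOMER settings followed by a filter on the irreproducible discovery rate (IDR) between replicates. A peak of a single list can be missing from the merged table.

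Tags were divided by DESeq2 size factors (DESeq2 1.42.0, R 4.3.3) for levels and rounded to whole numbers for tests. Peaks with more than 10 tags in at least 1 library entered the fit, 59170 at rest and 39235 among matched peaks, which are untreated and LPS peaks that each cover at least 50% of the other. The untreated fit compared CD45.1 with CD45.2, and the matched fit compared LPS with untreated within each population, with Benjamini-Hochberg adjustment over all peaks tested. Alternatives were edgeR 4.0.16 with TMM, scaling by total tags, other filters on low counts and leaving out each library. On simulated tags for 59170 resting peaks, 95 of 100 peaks changed 4-fold and 100 of 100 changed 8-fold were recovered at adjusted p under 0.05, with 22 false calls. This threshold is looser than the call used between populations. The changed peaks were drawn from those with a mean of at least 30 tags, with 1 dispersion for all peaks. The median region of the set had 26.1 tags, so recovery among its weaker regions was not tested. CD45.1 and CD45.2 libraries of the same number came from the same mouse, per the series design, and their deviations from the group means correlated at 0.081 to 0.087, so a fit with mouse as a block was added.

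Named regions were the 10 with the highest tags at least 500 bp from an LPS peak, 5 per direction between populations (the rule asked for called regions, and none was called), up to 3 per functional list, those of the 5 genes with most regions (ties by summed tags) and, per population and direction, the 3 matched peaks with the smallest adjusted p. Some genes and 1 functional list are not reported here. The set of regions and the gene lists were chosen with earlier results of these data known. Motifs were searched by letters in the central 200 bp of each peak in the NCBIM37 (mm9) genome, and exons came from GENCODE. Columns of all 12 libraries were used, and intervals cover counting error only.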

Additional observations from a re-analysis of the deposited data

Results flagged for a closer look

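The rise of 2 matched peaks after LPS differed between the populations by a test of the interaction (DESeq2). Near Tlr2, the peak at chr3:83689172-83689346 rose from 14.5 ± 3.04 to 155 ± 3.95 tags in CD45.2 cells and from 80.4 ± 33.1 to 224 ± 32.5 in CD45.1 cells (SD, n = 3 each). The difference in log2 fold change, CD45.1 minus CD45.2, was -1.97 (adjusted p = 1.1e-04). Near Mir5118, the peak at chr16:55551218-55551322 rose from 12.4 ± 3.56 to 127 ± 24.7 tags in CD45.2 and from 45.4 ± 13.4 to 142 ± 31.9 in CD45.1 cells, with a difference of -1.75 (adjusted p = 0.0023). Both peaks were named for their change in CD45.2 cells, and both were lower in CD45.2 than in CD45.1 cells before LPS.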

How the results depend on the processing

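The number of regions was 1584 with no LPS peak within 500 bp, 1963 when scaled tags had to reach the lowest score of all 6 LPS libraries, and 1819 with no peak in any single LPS list, an alternative added after the data were seen. It was 264 with all 6 untreated lists required and 4155 when an LPS peak had to come from 2 or more lists to count. Regions called higher in CD45.1 at rest were 0, and 1 with the replicate block for mouse, with 0 to 1 when 1 library was left out. Those called higher in CD45.2 were 0, also with the block, with 0 to 1 when 1 library was left out. With adjusted p under 0.05 and no fold limit they were 24 and 23. The regions called without a library were those near 5031425F14Rik, Zfp648 and Trim33, which had log2 fold changes of 1.89, -1.79 and -1.90 with all libraries. Matched peaks lower after LPS in CD45.1 numbered 510, or 223 scaled by total tags and 248 to 537 without 1 library. Those higher numbered 616, and 509 to 627 without 1 library. In CD45.2 the lower numbered 389, or 249 scaled by total tags and 218 to 330 without 1 library, and the higher 686, or 449 scaled by total tags and 564 to 649 without 1 library. The share called among all matched peaks also moved, and in each of these settings it was below the share near genes of the set. Taking matched peaks within 10 kb of a region, also added later, gave 226 lower and 225 higher in CD45.1 and 147 and 272 in CD45.2, from the smaller number of 3098 peaks. The difference in the share of peak tags was -0.07 percentage points, from -0.213 to 0.0308 without 1 mouse, and -0.07 with the replicate block. Without mouse 6 it was 0.0308, the reverse sign. Of 110 repeats for the 10 regions named between the populations, 102 kept adjusted p under 0.05, and the other 8 kept the direction, 4 of them under scaling by total tags. All 108 repeats for the 12 named results at matched peaks kept direction and call. The depth of the LPS libraries limits what their absence of a peak can show. The cause of the changes in count was not tested.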
